A study of Macaca mulatta with 11 samples.

Results

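G protein-coupled receptors and the genes that share their name stems were followed in the cumulus of rhesus macaques, the layer of somatic cells around the oocyte. Members were chosen by symbol: the GPR and ADGR names and the stems of the prostanoid, adrenergic, serotonin, adenosine, nucleotide, lysophospholipid, endothelin, vasopressin, oxytocin, angiotensin, melanocortin, muscarinic, dopamine, protease-activated, glutamate, neuropeptide Y and somatostatin receptors. Of 14132 genes with a symbol on the array, 146 matched, through 211 probe sets. Where a gene had several probe sets, which was so for 51 members, the one with the highest mean over all 11 arrays stood for it. No filter on low values was used, so all 146 were tested. The names also take in 16 genes that are not cell-surface G protein-coupled receptors, among them the ligand NPY, the angiotensin receptor adaptor AGTRAP, the 5 HTR3 ion channel subunits and intracellular membrane proteins such as GPR89A, GPR107 and GPR137B. They are counted as members and described as what they are.

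A G protein-coupled receptor spans the membrane with a bundle of helices and, when its ligand binds, activates a heterotrimeric G protein that raises or lowers cyclic AMP or releases calcium. The signal is ended by GTPase-activating proteins of the RGS family, by receptor kinases and by arrestins. In the ovulatory follicle the gonadotropins themselves act through such receptors, and prostaglandins act on the cumulus after the ovulatory surge. Cyclic AMP made by constitutively active receptors of the oocyte, such as GPR3, holds meiosis.

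The 3 groups were 4 pre-maturation samples (PM) from immature cumulus-oocyte complexes of animals given follicle-stimulating hormone (FSH) alone, 3 in vitro matured samples (IVM) from complexes cultured after FSH, and 4 in vivo matured samples (VVM) from complexes of animals given FSH and then human chorionic gonadotropin (hCG). All groups therefore shared the FSH stimulation. Whether each sample is from its own animal is not in the labels, and a p-value here reflects how much these particular samples varied, which may be technical. RNA was amplified from 50 ng per sample and measured on 1 Affymetrix array each. All levels are RMA intensities on the log2 scale, all differences are log2 differences with the standard error (SE) of a limma fit, and a gene was called at an adjusted p under 0.05.

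The array medians lay between 5.34 and 5.53. The lower quartiles of the arrays ran from 4.004 to 4.043 in PM, from 4.13 to 4.24 in IVM and from 4.11 to 4.16 in VVM. The upper quartiles ran from 7.22 to 7.313 in PM, from 7.076 to 7.139 in IVM and from 7.103 to 7.155 in VVM. Dim probe sets as a whole were thus brighter, and bright ones dimmer, in both matured groups. The part of this narrower range in the rises and falls of members was not tested. The bacterial hybridization controls, which carry no sample RNA, averaged 10.09 ± 0.21 for PM (SD, n = 4), 11.92 ± 0.40 for IVM (SD, n = 3) and 11.04 ± 0.43 for VVM (SD, n = 4). Markers of cumulus and granulosa cells, 13 of 15 measured, were bright everywhere, with array means of 9.87 to 10.01 in PM, 9.17 to 9.71 in IVM and 8.76 to 9.04 in VVM. Some arrays stood apart. The mean of 10 measured leukocyte markers was 6.89 in VVM 2 and 7.27 in VVM 3 against 5.05 to 5.38 in the other 9 arrays. The mean of 8 oocyte markers was 7.08 in PM 1 against 4.42 to 5.10 elsewhere. Markers of other cell types differed between the groups. The mean of 6 theca and stroma markers was 5.26 to 5.46 in PM, 5.82 to 6.26 in IVM and 5.73 to 6.13 in VVM, and that of 8 endothelial markers was 5.60 to 5.70, 5.99 to 6.16 and 5.78 to 6.49. The mean of 2 erythrocyte markers was 6.87 to 7.88, 6.41 to 6.72 and 7.44 to 8.49. The means of the theca and stroma list and of the endothelial list were thus higher in every matured array than in any PM array. Not every marker rose. Of the 6 theca and stroma markers 4 were called higher in IVM than in PM, and 2 higher and 1 lower in VVM. Of the 8 endothelial markers 2 were called higher in each. The part of these markers in the rises of members against PM was not tested.

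Members were dimmer than the genes at large. Their median level over the 11 arrays was 5.70 against 6.89 for all genes, and 83 of 146 (56.8%) lay above the median array median of 5.45, against 72.7% of all genes. The files used here hold no detection call, so for members below the array medians in a group the size of a fold against that group is uncertain. It is at best a lower bound, and only where the other group is bright. In bulk RNA, fewer cells of a type and less RNA per cell cannot be told apart.

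Receptor transcripts rose more often than they fell between the immature and the matured state, mostly by small amounts, and few differed between the culture and the in vivo samples. IVM against PM asks what changed in culture: 69 members (47.3%) were called against 45.9% of all genes. Of these, 60 (41.1%) rose, against 25% of all genes, and 9 (6.16%) fell, against 20.9%. VVM against PM asks what changed in the animal: 53 members (36.3%) were called against 39.8% of all genes. Here 44 (30.1%) rose, against 18% of all genes, and 9 (6.16%) fell, against 21.8%. In the comparison of the matured states, 7 members (4.79%) were called in IVM against VVM, while 16.7% of all genes were, with 5 higher in IVM (3.42% against 9.06%) and 2 lower (1.37% against 7.63%). The shares of members that were called at all thus lay near those of all genes in the comparisons with PM, while the direction of the calls and the count in IVM against VVM lay away from them. Both comparisons with PM share the 4 PM arrays.

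The rises were small. Of the 60 in IVM, 55 (91.7%) were under 2-fold, with a median of 0.57, against 79.7% and 0.62 for the rises of all genes. Of the 44 in VVM, 32 (72.7%) were, with a median of 0.50, against 68.7% and 0.671. Falls were larger, with a median size of 1.76 in IVM and 1.62 in VVM. Those of all genes were also larger than their rises, with medians of 1.165 and 1.033. At 2-fold or more, 12 members were called in IVM against PM (8.22%, all genes 17.9%), 5 of them up (3.42%, all genes 5.09%) and 7 down (4.79%, all genes 12.8%), and 20 in VVM against PM (13.7%, all genes 17%), 12 of them up (8.22%, all genes 5.65%) and 8 down (5.48%, all genes 11.3%). In IVM against VVM the count at 2-fold or more was 6 (4.11%, all genes 7.98%), with 4 higher and 2 lower in IVM (all genes 3.13% and 4.85%). Groups did not overlap array by array for 81 members in IVM against PM (55.5%, all genes 50.3%), 67 in VVM against PM (45.9%, all genes 41.9%) and 24 in IVM against VVM (16.4%, all genes 28.6%).

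How many of the small rises were called depended on the scale of the arrays. Centring each array on its median moved the difference of all genes from PM down by 0.147 in IVM and 0.107 in VVM. On that scale 45 members were called in IVM against PM, 33 up and 12 down, and 34 in VVM against PM, 24 up and 10 down. Rises thus made up 73.3% of the calls in IVM and 70.6% in VVM, where they were 87% and 83% before centring. Quantile normalization of the values again moved the counts less. It gave 60 members in IVM against PM, 51 up and 9 down, and 41 in VVM against PM, 32 up and 9 down. The share of all genes in that fit was not counted. Members that rose on the centred scale were 22.6% of all members in IVM, against 14.7% of all genes, and 16.4% in VVM, against 12.1%. Those that fell were 8.22% in IVM, against 24.1% of all genes, and 6.85% in VVM, against 25%. Among the 63 members not above the array median, 19 rose in IVM (30.2%, all such genes 24.2%) and 12 in VVM (19%, all such genes 14.1%). With centring these were 4 in IVM (6.35%, all such genes 9.65%) and 6 in VVM (9.52%, all such genes 6.62%). Of the 83 brighter members 41 rose in IVM (49.4%, all such genes 25.4%), and 29 with centring (34.9%, all such genes 16.6%). The calls at 2-fold or more in IVM against PM were all 12 called again on the centred scale, as were 19 of the 20 in VVM against PM and 5 of the 6 in IVM against VVM. With the hybridization control level, which differs between the groups, added to the model, limma called 0 members in IVM against PM (9 at an unadjusted p under 0.05), 7 in VVM against PM and 1 in IVM against VVM. These were 0%, 4.79% and 0.685% of members. Of all genes, 2 (0.0142%), 1577 (11.2%) and 329 (2.33%) were called in that fit. Calls were thus lost among all genes and not only among members, and in VVM against PM the share of members lay below that of all genes. The 7 members in VVM against PM were 4 higher and 3 lower, so that rises no longer prevailed there. The part of these controls in the other counts was not tested.

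**Figure D1:**
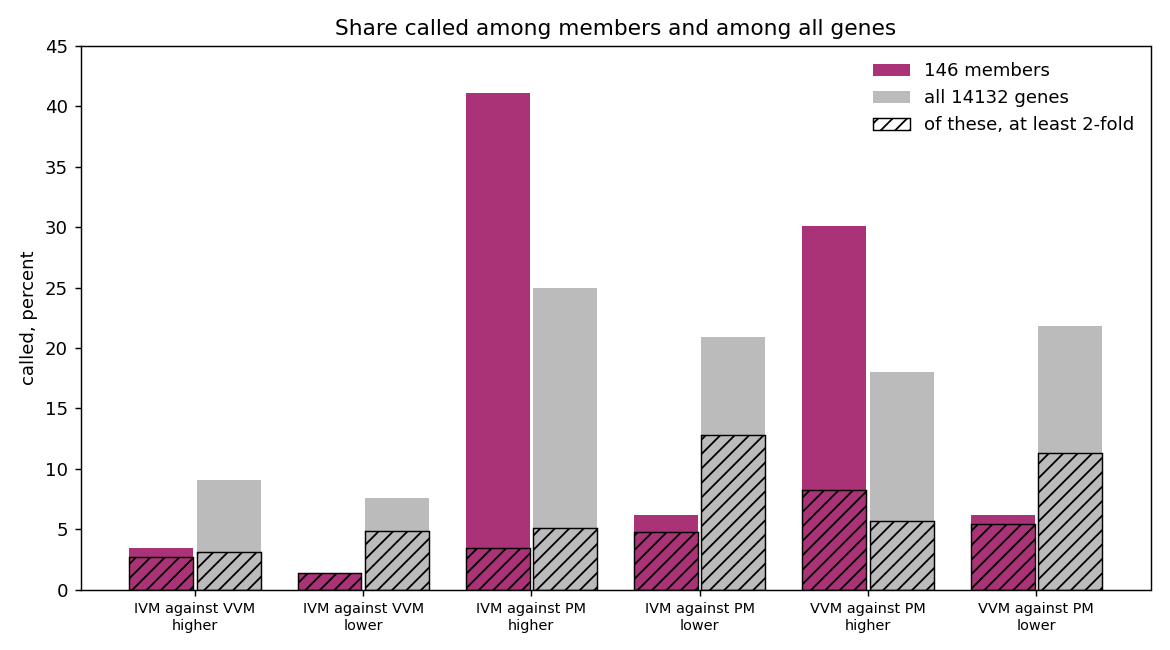
Share of the 146 members (purple) and of all 14132 genes (grey) that limma called higher or lower in each comparison, in percent, with the hatched part at 2-fold or more. Rises against PM took 41.1% of members in IVM and 30.1% in VVM, against 25% and 18% of all genes, and most lay under 2-fold.

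GPRC5B, a class C orphan receptor induced by retinoic acid, had the largest difference of any member in both comparisons that involve VVM. Its level was 5.96, 5.64, 6.32 and 6.28 in the PM arrays, 7.10, 7.06 and 6.42 in the IVM arrays, and 11.98, 11.04, 11.88 and 11.41 in the VVM arrays. No array of VVM came near any array of the other groups. IVM lay below VVM by a log2 difference of -4.72 ± 0.26 (26.4-fold, adjusted p = 1.06e-05), and VVM lay above PM by 5.53 ± 0.24 (46.2-fold, adjusted p = 7.96e-07). The rise in IVM was 0.81 ± 0.26 (adjusted p = 0.0286) and was not called on the centred scale (0.66, adjusted p = 0.0712) or without PM 1 (0.78, adjusted p = 0.0626), PM 2 (0.67, adjusted p = 0.0693), IVM 1 (0.69, adjusted p = 0.103) or IVM 2 (0.71, adjusted p = 0.0982). A second GPRC5B probe set gave the same picture (-4.37 ± 0.35 in IVM against VVM and 4.93 ± 0.33 in VVM against PM, both called). The third was called in VVM against PM at 1.08 ± 0.15 and not in IVM against VVM (-0.48 ± 0.16, adjusted p = 0.0886).

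On their brightest probe set, the protease-activated receptors F2R and F2RL1 were higher in culture than in either other group. These receptors are switched on when a protease cuts their outer end, F2R mainly by thrombin and F2RL1 by trypsin-like proteases. F2R was at 9.73, 9.24 and 9.79 in IVM, above all VVM arrays at 7.77, 7.51, 8.76 and 8.84 and all PM arrays at 8.24, 8.79, 8.13 and 8.16. It was 2.59-fold higher in IVM than in VVM (1.37 ± 0.32, adjusted p = 0.0186) and 2.40-fold higher than in PM (1.26 ± 0.32, adjusted p = 0.00981). The second receptor followed the same order of groups. F2RL1 was at 11.57, 11.46 and 11.05 in IVM, at 10.59, 10.07, 10.11 and 10.40 in VVM, and at 10.23, 10.95, 10.26 and 10.37 in PM. Its difference was 1.07 ± 0.20 (adjusted p = 0.00728) against VVM and 0.91 ± 0.20 (adjusted p = 0.00544) against PM. Between VVM and PM neither was called, at -0.11 ± 0.30 and -0.16 ± 0.19. The third receptor of the family, F2RL2, was called in no comparison and stayed between group means of 4.68 and 4.89. Each of the pair had a second, dimmer probe set that was not called, at -0.38 ± 0.43 for F2R and 0.36 ± 0.20 for F2RL1 in IVM against VVM. In IVM against PM these were 0.305 ± 0.433 (adjusted p = 0.59) and 0.045 ± 0.201 (adjusted p = 0.869). The second F2RL1 probe set was at 7.01 to 8.02, above the array medians. With PM 1, VVM 2 and VVM 3 left out, neither was called in IVM against VVM (1.29, adjusted p = 0.0657, and 0.86, adjusted p = 0.0797). F2R was also not called there without IVM 1 (1.30, adjusted p = 0.0586) or without IVM 3 (1.27, adjusted p = 0.0539).

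Among the lysophospholipid and other lipid receptors, GPR34 and S1PR3 moved in opposite directions. GPR34, a receptor for lysophosphatidylserine found on macrophages and microglia, was at 3.78, 3.49, 4.54 and 3.79 in PM, at 5.37, 4.53 and 4.34 in IVM, and at 5.87, 5.82, 6.89 and 6.10 in VVM. The VVM arrays lay above all others, and IVM and PM overlapped. VVM exceeded PM by 2.27 ± 0.30 (adjusted p = 0.000268), a difference called in all 11 fits that left out 1 array. IVM lay below VVM (-1.43 ± 0.33, adjusted p = 0.0175), and that call was lost without IVM 2 (-1.32, adjusted p = 0.0742) or IVM 3 (-1.22, adjusted p = 0.0572).

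S1PR3, a receptor for sphingosine 1-phosphate, was lower in VVM than in both other groups, with wide spread. Its level was 8.46, 9.45, 8.84 and 7.92 in PM, 8.38, 8.14 and 10.23 in IVM, and 5.46, 8.40, 6.12 and 6.46 in VVM. VVM 2 lay among the arrays of the other groups. The difference was -2.06 ± 0.62 in VVM against PM (adjusted p = 0.0275), called in 5 of the 11 fits that left out 1 array. In IVM against VVM it was 2.31 ± 0.67 (adjusted p = 0.049), called in 1 of them, that without VVM 2, and not on the centred scale (2.27, adjusted p = 0.0584). A second S1PR3 probe set was lower in VVM than in PM as well (-0.83 ± 0.25, adjusted p = 0.0242) but also lower in IVM than in PM (-0.74 ± 0.26, adjusted p = 0.0431), and was not called between IVM and VVM (0.09 ± 0.26, adjusted p = 0.869).

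The 7 calls of IVM against VVM were completed by NPY2R and GPR137B. NPY2R, a receptor for neuropeptide Y, was dim in every array, at 4.43, 4.36 and 4.20 in IVM, 3.81, 4.15, 3.84 and 3.92 in VVM and 3.89 to 3.91 in PM. IVM exceeded VVM by 0.40 ± 0.11 (adjusted p = 0.041), a call kept in 2 of the 11 fits that left out 1 array. GPR137B, a lysosomal membrane protein, was at 10.93, 11.10 and 11.12 in IVM, at 9.80, 10.16, 10.43 and 9.70 in VVM, and at 9.91, 10.86, 10.35 and 10.51 in PM. The IVM arrays were highest on this probe set, by 1.02 ± 0.22 against VVM (adjusted p = 0.0135; 1.0 and 0.0521 without IVM 2) and by 0.64 ± 0.22 against PM (adjusted p = 0.0398). Another GPR137B probe set went the other way in IVM against VVM (-0.95 ± 0.27, adjusted p = 0.0458), so that no direction can be given for the gene. Its call against PM was also lost on the centred scale (0.49, adjusted p = 0.114).

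**Figure D2:**
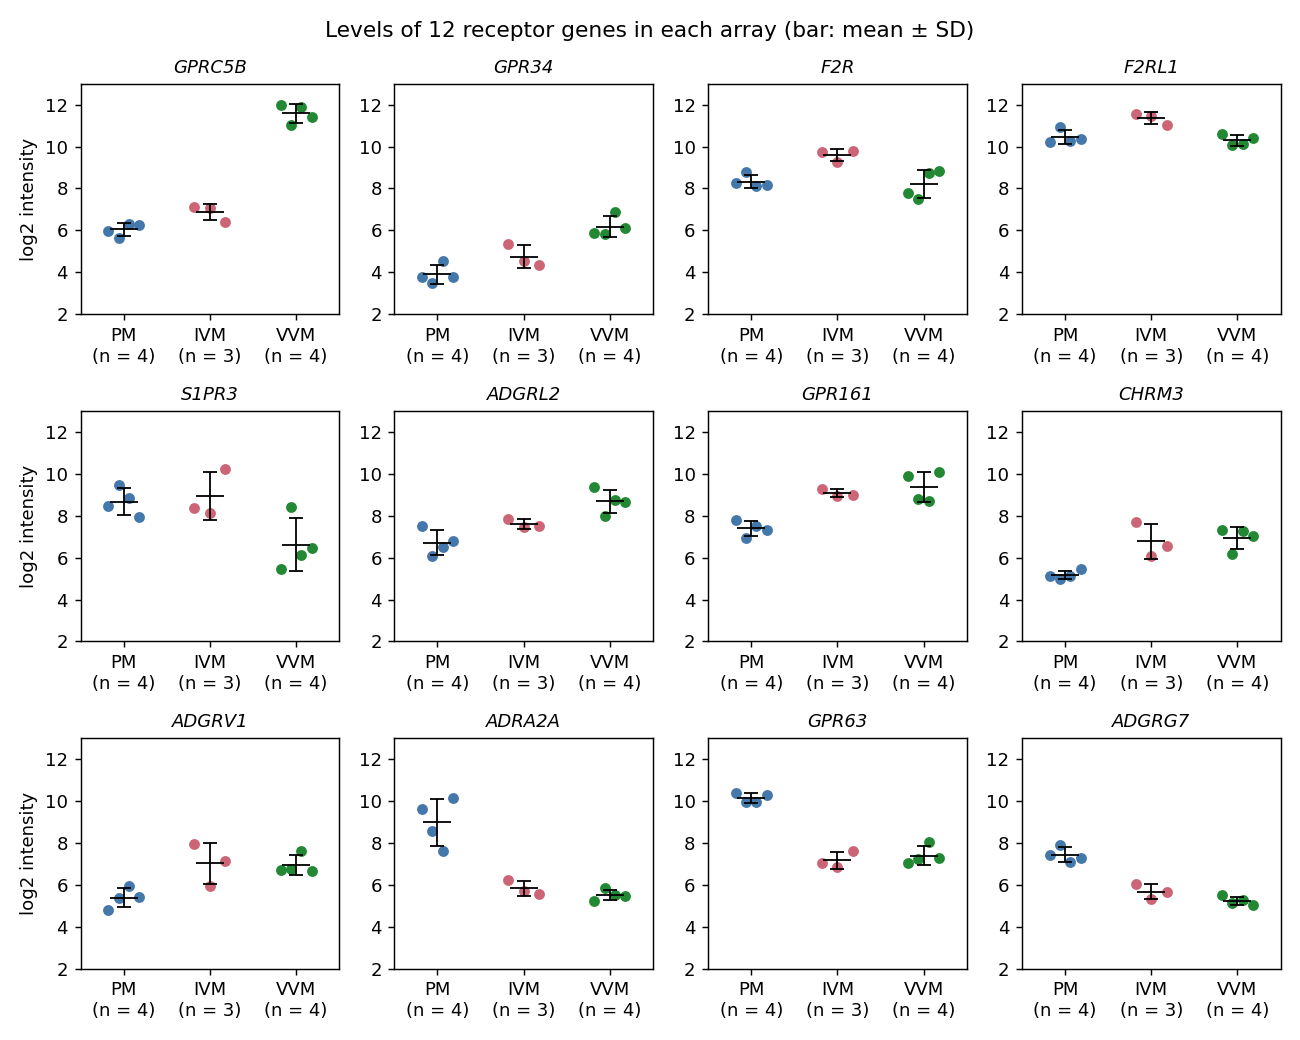
Log2 intensity of 12 receptor genes in each array of PM (4), IVM (3) and VVM (4), with points for arrays and bars for the mean ± SD. GPRC5B lies at 11.04 to 11.98 in VVM and at 7.10 or lower elsewhere, F2R and F2RL1 are highest in IVM, and ADRA2A, GPR63 and ADGRG7 are highest in PM.

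Of the members that fell against PM, 6 did so in both matured groups, 3 in IVM alone and 3 in VVM alone, S1PR3 among the last. ADRA2A, the alpha-2A adrenergic receptor, which lowers cyclic AMP through Gi proteins, was at 9.61, 8.56, 7.62 and 10.15 in PM, at 6.23, 5.72 and 5.54 in IVM, and at 5.22, 5.84, 5.53 and 5.45 in VVM. Every PM array lay above every matured array, and the matured groups overlapped. It fell by 3.15 on the log2 scale in IVM (SE 0.48, 8.90-fold, adjusted p = 0.000537) and by 3.48 in VVM (SE 0.44, 11.1-fold, adjusted p = 0.000192). IVM and VVM differed by 0.32 ± 0.48 (adjusted p = 0.715). Among the other amine receptors no further member fell.

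GPR63, an orphan receptor described mainly in brain, was at 10.37, 9.96, 9.94 and 10.28 in PM, at 7.04, 6.85 and 7.61 in IVM, and at 7.03, 7.22, 8.03 and 7.26 in VVM. No matured array came near the PM arrays, and the fall was 2.97 in IVM (SE 0.25, adjusted p = 1.7e-05) and 2.75 in VVM (SE 0.23, adjusted p = 1.75e-05). The adhesion receptor ADGRG7 was at 7.43, 7.91, 7.10 and 7.28 in PM, at 6.05, 5.32 and 5.66 in IVM, and at 5.50, 5.12, 5.26 and 5.02 in VVM. It fell by 1.76 in IVM (SE 0.22, adjusted p = 0.000152) and by 2.21 in VVM (SE 0.20, adjusted p = 2.67e-05). For ADGRG7 a second probe set showed no such change (-0.03 ± 0.14 in IVM and 0.00 ± 0.13 in VVM). These 3 genes were called against PM in all 11 fits that left out 1 array, in both matured groups.

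The other 3 members that fell in both groups were GPR137C, ADGRA3 and GPR160. GPR137C, a relative of GPR137B, was at 6.90, 5.54, 7.61 and 6.28 in PM and at 5.42 or lower in all 7 matured arrays, with differences of -1.77 ± 0.44 in IVM (adjusted p = 0.0088) and -1.60 ± 0.41 in VVM (adjusted p = 0.0121). ADGRA3, an adhesion receptor, went from 9.53, 8.92, 9.001 and 9.21 in PM to 8.23, 8.66 and 8.78 in IVM and 7.54, 8.35, 7.85 and 8.26 in VVM. Its fall in VVM (-1.17 ± 0.20, adjusted p = 0.0015) was called in all 11 fits without 1 array, and that in IVM (-0.61 ± 0.22, adjusted p = 0.0463) in 5 of them. The orphan GPR160 spread widely in PM, at 6.44, 4.99, 3.60 and 4.94, where PM 1, the array with high oocyte markers, was highest and PM 3 lay among the matured arrays (3.20 to 3.81). Its difference was -1.42 ± 0.48 in IVM (adjusted p = 0.0349) and -1.62 ± 0.44 in VVM (adjusted p = 0.0173). Without PM 1 these were -0.93 and -1.13, and the call in IVM was also lost without PM 2 (-1.42, adjusted p = 0.0599), PM 4 (-1.43, adjusted p = 0.06), IVM 1 (-1.35, adjusted p = 0.094), IVM 2 (-1.36, adjusted p = 0.094) or IVM 3 (-1.53, adjusted p = 0.0516). With PM 1, VVM 2 and VVM 3 left out neither was called (adjusted p = 0.0738 and 0.0663), and the part of the oocyte markers was not tested.

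A few members fell in 1 matured group. SSTR1, a somatostatin receptor, fell in IVM (-2.11 ± 0.75, adjusted p = 0.0424), from 8.15, 6.12, 6.23 and 8.76 in PM to 4.87, 4.497 and 6.26, with overlapping groups, and its call was lost without PM 1 (-1.83, adjusted p = 0.103), PM 4 (-1.63, adjusted p = 0.102), IVM 1 (-1.94, adjusted p = 0.119), IVM 2 (-1.75, adjusted p = 0.145) or VVM 4 (adjusted p = 0.0538). GPR89A, an ion channel of the Golgi membrane rather than a receptor, was at 8.46 to 8.55 in PM and at 7.57, 7.06 and 7.80 in IVM (-1.02 ± 0.20, adjusted p = 0.00219). The orphan GPR173 fell by 0.43 in IVM (SE 0.14, adjusted p = 0.0321). In VVM the adhesion receptor ADGRB2 was lower than PM, at 5.95, 6.36, 5.79 and 6.24 against 6.71, 7.48, 7.60 and 6.68 (-1.03 ± 0.27, adjusted p = 0.0144), and GPR180 fell by 0.50 (SE 0.14, adjusted p = 0.0163). Second probe sets of GPR89A, SSTR1 and, among the genes above, ADGRA3 were not called. For none of SSTR1, GPR89A, GPR173, ADGRB2 and GPR180 was the difference between IVM and VVM called.

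The 3 members that rose at least 2-fold in both matured groups were GPR161, CHRM3 and ADGRV1. GPR161, a receptor of the primary cilium that restrains Hedgehog signalling, went from 7.79, 6.93, 7.52 and 7.33 in PM to 9.28, 8.93 and 8.98 in IVM and 9.90, 8.80, 8.68 and 10.09 in VVM. No PM array reached any matured array. The rise was 1.67 ± 0.34 in IVM (3.18-fold, adjusted p = 0.00293) and 1.97 ± 0.31 in VVM (3.93-fold, adjusted p = 0.000775), and both other GPR161 probe sets were called upward in both comparisons, at 2.47 and 1.03 in IVM and 1.79 and 1.43 in VVM.

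CHRM3, a muscarinic acetylcholine receptor that releases calcium through Gq proteins, was at 5.13, 4.99, 5.11 and 5.43 in PM, at 7.70, 6.08 and 6.54 in IVM, and at 7.30, 6.17, 7.26 and 7.05 in VVM. It rose by 1.61 ± 0.36 in IVM (adjusted p = 0.00497) and by 1.78 ± 0.33 in VVM (adjusted p = 0.00212), and its second probe set was called upward in both as well (0.48 ± 0.14 and 0.72 ± 0.13). ADGRV1, a very large adhesion receptor known from Usher syndrome, was at 4.81, 5.39, 5.92 and 5.41 in PM, at 7.94, 5.95 and 7.16 in IVM, and at 6.73, 6.73, 7.63 and 6.64 in VVM. Its lowest IVM array lay barely above its highest PM array. The rise was 1.63 ± 0.42 in IVM (adjusted p = 0.0105) and 1.55 ± 0.39 in VVM (adjusted p = 0.0112). Without PM 1, VVM 2 and VVM 3 the latter was 1.11 and not called (adjusted p = 0.168). Another, dimmer ADGRV1 probe set was called upward in IVM (0.55 ± 0.15, adjusted p = 0.0147) but not in VVM (0.22 ± 0.14, adjusted p = 0.261). The remaining one, also dim, was called in neither (0.23 ± 0.10 and 0.14 ± 0.10).

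In IVM the 2-fold rises were completed by F2R and by GPR85, an orphan receptor conserved among vertebrates, which went from 4.12 to 4.55 in PM to 5.49, 5.18 and 5.69 (1.11 ± 0.24, adjusted p = 0.00391). Its second probe set was not called (0.24 ± 0.10, adjusted p = 0.0724). In VVM more members passed 2-fold. ADGRL2, a latrophilin, which links cells through teneurins, was at 9.36, 8.0, 8.76 and 8.64 there, at 7.86, 7.46 and 7.48 in IVM and at 7.49, 6.05, 6.51 and 6.79 in PM. VVM exceeded PM by 1.98 ± 0.32 (3.94-fold, adjusted p = 0.000827) in all 11 fits that left out 1 array, while IVM lay between them and was called against neither (0.89 ± 0.34, adjusted p = 0.0567, against PM and -1.09 ± 0.34, adjusted p = 0.0636, against VVM).

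ADORA2B, the low-affinity adenosine receptor that raises cyclic AMP, was at 6.36, 5.33, 7.17 and 5.52 in VVM and between 4.602 and 5.12 in all 7 other arrays. VVM exceeded PM by 1.18 ± 0.33 (adjusted p = 0.0201), and the call was lost without PM 3 (1.08, adjusted p = 0.0523) or VVM 1 (1.09, adjusted p = 0.0526). GPR143, a receptor of pigment cell organelles, was dim, and tight in PM, at 4.67 to 4.74 (SD 0.033). It was at 5.69, 5.32 and 4.80 in IVM (SD 0.444) and at 6.02, 5.6, 6.002 and 5.81 in VVM. VVM exceeded PM by 1.16 ± 0.17 (adjusted p = 0.000498). The serotonin receptor HTR2A stood on 1 array more than the others, with VVM at 6.46, 7.39, 7.68 and 9.80 against 6.18, 5.68, 5.81 and 6.28 in PM (1.85 ± 0.58, adjusted p = 0.0329). Without VVM 4, the highest array, it was 1.19. Its call was lost without any 1 of the 4 PM arrays (adjusted p between 0.0527 and 0.0721) or without VVM 3 (1.90, adjusted p = 0.0571).

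GPR183, GPR65, GPR84 and GPR34, receptors known from macrophages and lymphocytes, were among the 12 members that rose at least 2-fold in VVM. GPR183, which senses oxysterols, was at 3.30, 5.44, 7.68 and 3.51 in VVM and between 2.45 and 3.19 in the other groups. GPR65, a proton sensor, was at 3.92, 6.37, 5.67 and 3.59 in VVM and between 3.22 and 3.90 elsewhere. GPR84, a receptor for medium-chain fatty acids, was at 5.82, 7.43, 7.18 and 5.80 in VVM and between 5.20 and 5.98 elsewhere. In all 3 the high arrays were VVM 2 and VVM 3, and the other VVM arrays lay at or near the levels of IVM.

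The same arrays were high in the leukocyte markers. LYZ was at 5.10, 7.62, 9.51 and 4.80 in VVM, TYROBP at 6.51, 8.14, 9.90 and 6.25, CD14 at 6.05, 7.26, 8.82 and 6.13, and PTPRC, which defines leukocytes, at 3.98, 6.89, 6.58 and 4.27. Of the 10 measured markers 5 were higher and 2 lower in VVM than in PM, and the summed intensity of the list ran from 1259 to 1495 in PM, from 523 to 743 in IVM and from 461 to 3093 in VVM. CSF1R, one of the list, went the other way, at 9.95 to 10.21 in PM and 6.60, 8.28, 8.75 and 6.49 in VVM. The difference from PM was 2.39 ± 0.75 for GPR183 (adjusted p = 0.0318), 1.46 ± 0.51 for GPR65 (adjusted p = 0.0472) and 1.21 ± 0.34 for GPR84 (adjusted p = 0.0191). With PM 1, VVM 2 and VVM 3 left out it was 0.87 for GPR183, still called (adjusted p = 0.00591), 0.35 for GPR65 (adjusted p = 0.29) and 0.41 for GPR84 (adjusted p = 0.148). GPR183 was not called without any 1 of the 4 PM arrays (adjusted p between 0.0593 and 0.0649) or without VVM 2 (2.24, adjusted p = 0.0761), though it was without VVM 3 (1.49). GPR65 was not called on the centred scale (1.35, adjusted p = 0.0681) and in 9 of the 11 fits that left out 1 array. GPR84 was not called without VVM 3 (1.001, adjusted p = 0.0538). For GPR34, VVM 1 and VVM 4, with leukocyte marker means of 5.35 and 5.25, were at 5.87 and 6.10, against 5.37 or lower in PM and IVM. GPR183 was also above all PM and IVM arrays in VVM 1 and VVM 4, at 3.30 and 3.51 against 3.19 or lower. With PM 1, VVM 2 and VVM 3 left out the difference of GPR34 from PM was 2.05 (adjusted p = 0.00812). The part of leukocytes in these differences was not tested.

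**Figure D3:**
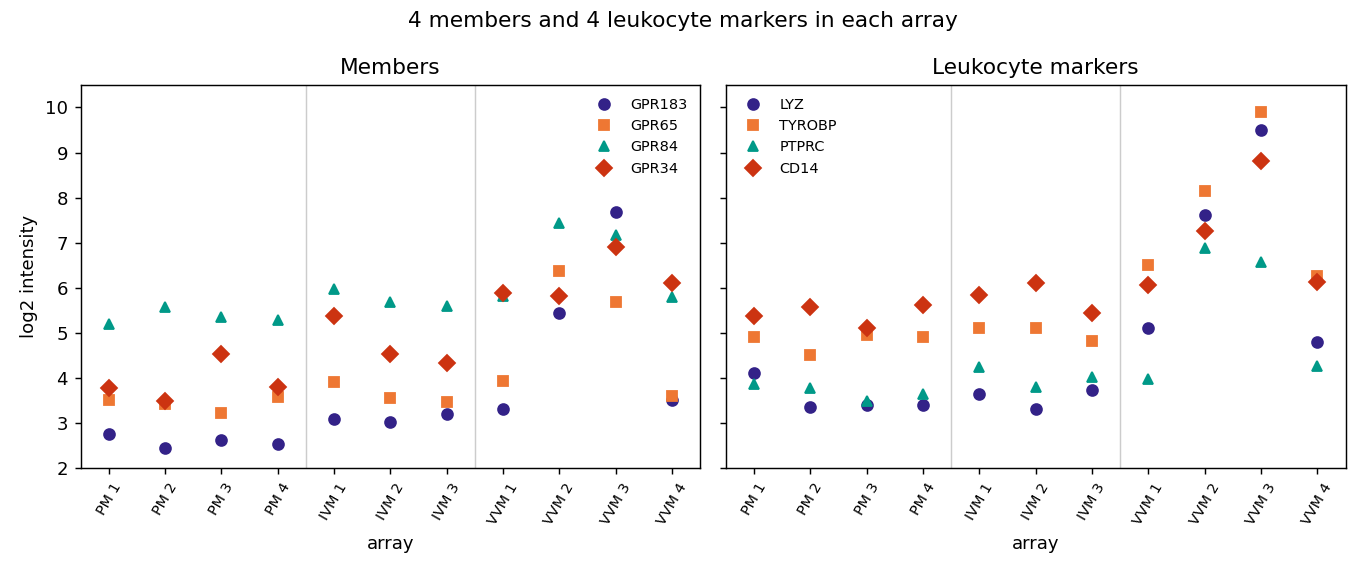
Log2 intensity of GPR183, GPR65, GPR84 and GPR34 (left) and of the leukocyte markers LYZ, TYROBP, PTPRC and CD14 (right) in each of the 11 arrays, with PM, IVM and VVM divided by grey lines. The first 3 receptors and the markers peak in VVM 2 and VVM 3, whereas GPR34 is at 5.82 to 6.89 in all 4 VVM arrays.

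The rises were spread over the receptor classes, and no class was tested against another. For comparison, 25% of all genes rose and 20.9% fell in IVM, and 18% rose and 21.8% fell in VVM. On the centred scale 14.7% of all genes rose and 24.1% fell in IVM, and 12.1% rose and 25% fell in VVM. Of 19 peptide hormone receptors, 12 (63.2%) rose and 1 fell in IVM and 8 (42.1%) rose in VVM, and on the centred scale 6 rose in IVM and 4 in VVM. They included the vasopressin receptor AVPR1A (0.87 ± 0.17 in IVM, 0.62 ± 0.16 in VVM), the melanocortin receptor MC5R (0.75 ± 0.14 and 0.54 ± 0.12) and the somatostatin receptor SSTR4 (0.72 ± 0.12 and 0.39 ± 0.12). A second AVPR1A probe set was called downward in VVM (-0.33 ± 0.09, adjusted p = 0.0179), against the direction of the first. The oxytocin receptor OXTR rose in IVM (0.62 ± 0.14, adjusted p = 0.00677) from a level of 3.35 to 3.61 in PM, below the array medians. GPR37, an orphan receptor with prosaposin-derived peptides as proposed ligands, had a large difference of IVM against VVM that was not called. It was at 9.81, 7.34, 7.23 and 10.37 in VVM, at 6.86, 4.14 and 7.25 in IVM and at 6.90, 5.38, 7.79 and 6.61 in PM (-2.61 ± 0.93 in IVM against VVM, adjusted p = 0.0985, and 2.02 ± 0.86 in VVM against PM, adjusted p = 0.0981). A second GPR37 probe set was called higher in VVM than in PM (1.83 ± 0.61, adjusted p = 0.0406).

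Of 19 amine receptors, 9 (47.4%) rose and 1 (5.26%) fell in IVM and 8 (42.1%) rose and 1 fell in VVM. Of all genes 25% and 18% rose. On the centred scale 5 of the 19 rose in each, against 14.7% and 12.1% of all genes. Besides CHRM3 and HTR2A the uncentred rises were led by the beta-3 adrenergic receptor ADRB3 (0.83 ± 0.12 in IVM and 0.56 ± 0.11 in VVM), HTR1B (0.81 ± 0.19 and 0.59 ± 0.17) and HTR4 (0.63 ± 0.15 and 0.59 ± 0.14). One of 3 ADRB3 probe sets and the second of HTR4 were not called. Of 9 nucleotide and adenosine receptors, 4 (44.4%) rose in IVM and 3 (33.3%) in VVM, with 2 in each on the centred scale, led by the UDP receptor P2RY6 (0.66 ± 0.11 and 0.49 ± 0.10). Of 18 lipid receptors 2 (11.1%, all genes 25%) rose in IVM, namely GPR132 (0.85 ± 0.13) and the lysophosphatidylinositol receptor GPR55 (0.81 ± 0.17), and both were called on the centred scale too. In VVM 5 (27.8%) rose and 1 (5.56%) fell, where GPR132 again rose (0.70 ± 0.12) and LPAR4 rose by 0.27 ± 0.10 (adjusted p = 0.049), a call lost on the centred scale (0.16, adjusted p = 0.22) and in 9 of the 11 fits that left out 1 array. Without these 3 arrays (PM 1, VVM 2, VVM 3) 19 members in all were called in VVM against PM. Small rises there such as those of PTGER1, PTGIR, MC5R, SSTR4 and P2RY6 were not among them. That fit has fewer PM and VVM arrays, and the share of all genes called in it was not counted. The loss of calls is therefore not a result about the members.

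The prostanoid receptors measured were PTGDR, PTGDR2, PTGER1 and PTGIR. PTGER1, a prostaglandin E2 receptor that releases calcium, was at 6.04, 6.55, 6.25 and 6.28 in PM, 7.14, 6.85 and 6.74 in IVM and 6.88, 6.88, 6.75 and 6.62 in VVM, and rose in both (0.63 ± 0.14, adjusted p = 0.00595, and 0.50 ± 0.13, adjusted p = 0.0154). PTGIR, the prostacyclin receptor, rose as well (0.48 ± 0.11, adjusted p = 0.0057, and 0.55 ± 0.10, adjusted p = 0.00201). Both were called on the centred scale in both comparisons. A second PTGIR probe set was not called. For the prostaglandin D2 receptors PTGDR and PTGDR2 the brightest probe set was called in no comparison. A second probe set was called higher in IVM than in PM for PTGDR (0.67 ± 0.16, adjusted p = 0.00646) and lower in VVM than in PM for PTGDR2 (-0.73 ± 0.24, adjusted p = 0.0372).

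Of 17 adhesion receptors, 5 (29.4%) rose and 2 (11.8%) fell in IVM and 3 (17.6%) rose and 3 (17.6%) fell in VVM, shares of rises near the 25% and 18% of all genes. ADGRL1, a latrophilin, rose in IVM by 0.68 ± 0.13 (adjusted p = 0.00204), with PM at 8.03 to 8.09 and IVM at 8.99, 8.62 and 8.59. Of 6 class C members 3 rose in IVM and 2 in VVM, and on the centred scale 1 in each, which in VVM was GPRC5B. Of 5 proton-sensing or constitutively active receptors, GPR4 rose in IVM (0.61 ± 0.15) and GPR65 in VVM. The oocyte receptors GPR3 and GPR12 were called in no comparison and were not raised in PM 1, the array with high oocyte markers, where GPR3 was at 5.76 and GPR12 at 5.34 against 5.71 to 5.82 and 4.91 to 5.45 in the other PM arrays. Among 30 other GPR-named members 14 (46.7%) rose and 3 fell in IVM and 7 (23.3%) rose and 2 fell in VVM. On the centred scale 7 and 2 of the 30 rose, where 14.7% and 12.1% of all genes did. Of the 16 members that are not cell-surface receptors 6 (37.5%) rose and 2 fell in IVM and 5 (31.2%) rose and 2 fell in VVM, while centring left 0 rises and 4 falls in IVM and 2 rises and 3 falls in VVM.

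**Figure D4:**
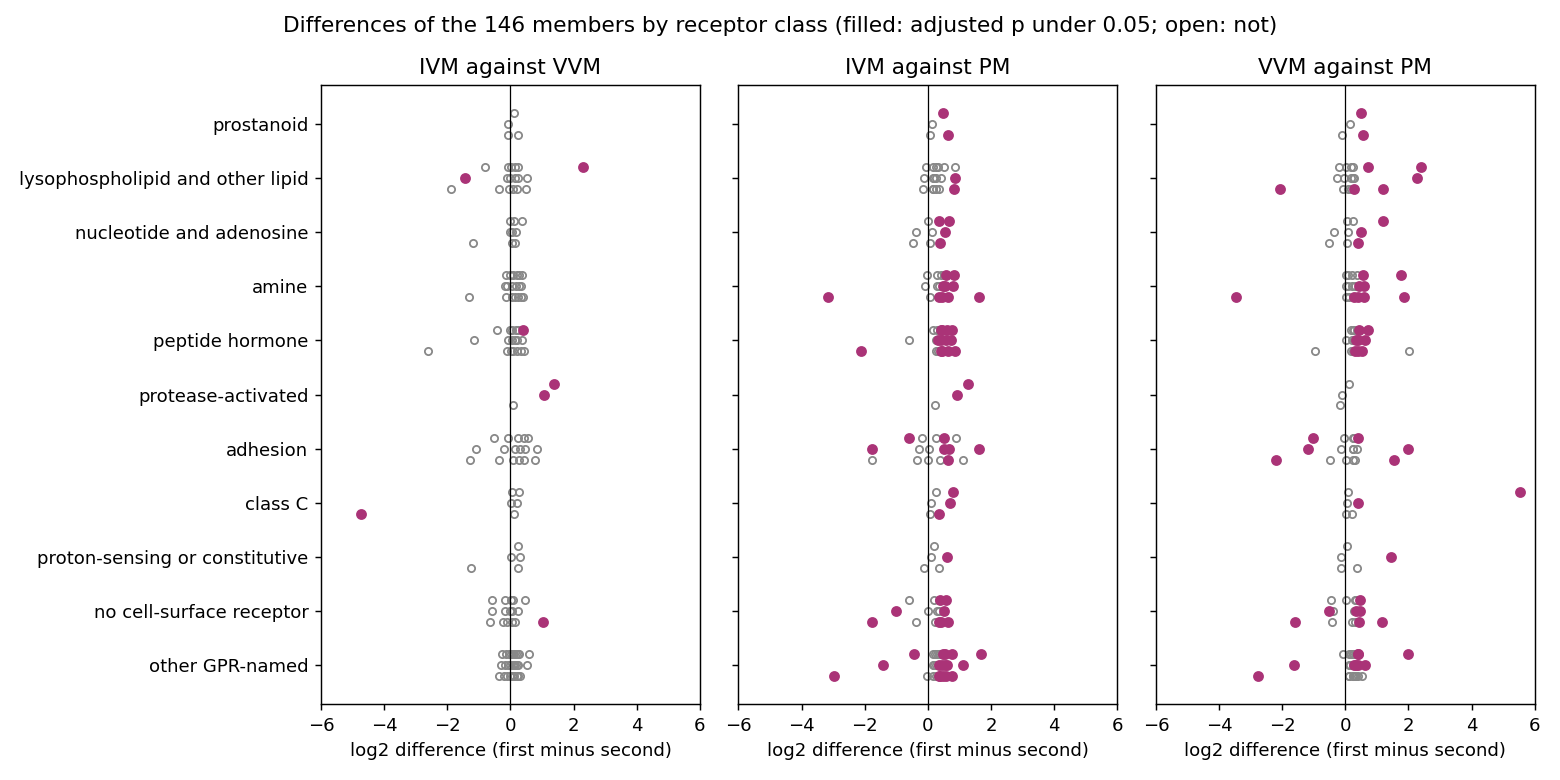
Log2 difference (first group minus second) of each of the 146 members by receptor class, in the 3 comparisons, with filled points for an adjusted p under 0.05; vertical spread within a class only separates points. Most filled points against PM lie between 0 and 1, and the points beyond 2 in size belong to few genes such as GPRC5B, ADRA2A and GPR63.

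Set side by side, 58 members were called in no comparison. In both matured groups 27 were higher than PM without a call between IVM and VVM, and 6 were lower. A further 28 were called higher in IVM only and 15 in VVM only, again with no call between IVM and VVM, so a difference between culture and animal was not shown for either set. These patterns were not counted among all genes, so the counts describe the members only. The members with a called difference between the matured states fell into a group higher in IVM than in both others on their brightest probe set (F2R, F2RL1, NPY2R and GPR137B, the last with another probe set called the opposite way), 2 genes highest in VVM (GPRC5B and GPR34) and S1PR3, whose brightest probe set was lowest in VVM.

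**Figure D5:**
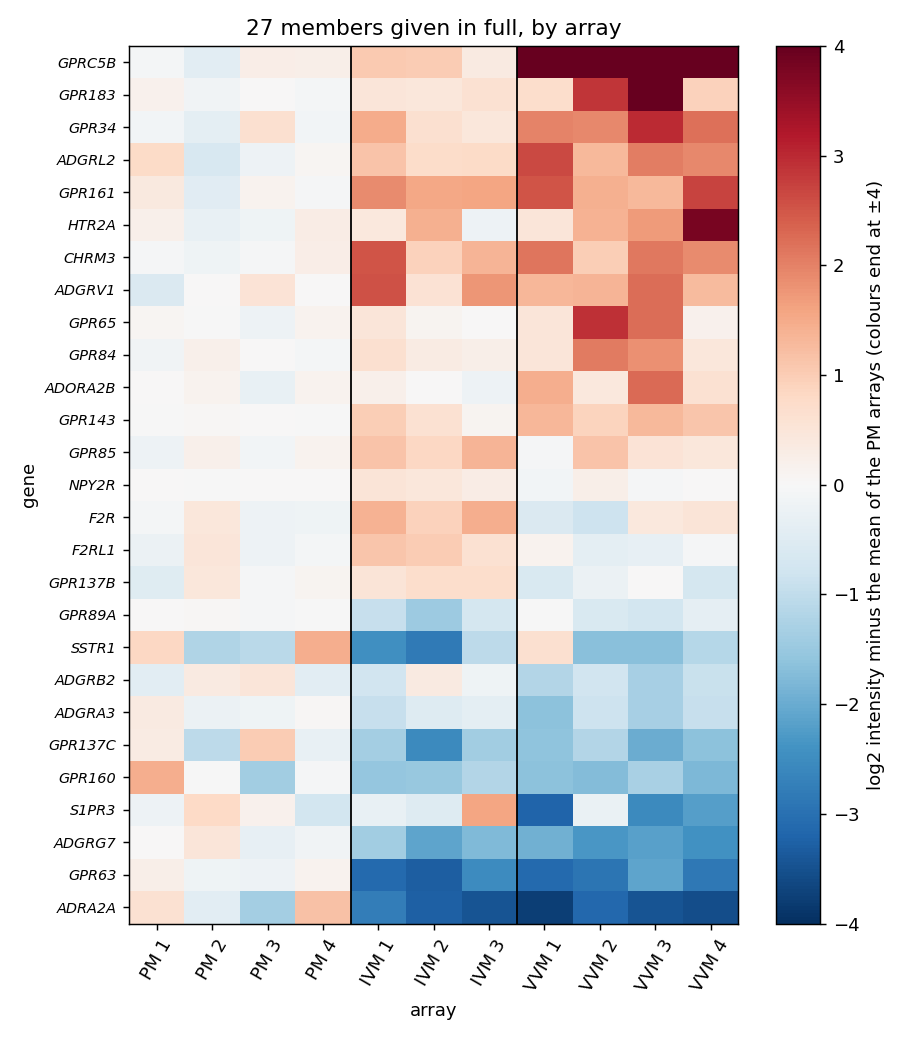
Log2 intensity minus the mean of the PM arrays for 27 members in each of the 11 arrays, red above and blue below PM, with colours ending at 4 in either direction and groups divided by black lines. GPRC5B is high in the 4 VVM arrays, GPR183 mainly in VVM 2 and VVM 3, and ADRA2A and GPR63 are low in all 7 matured arrays.

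Agreement between probe sets of a gene could be checked for the called members that have several. In IVM against PM, 9 of 25 such members had another probe set called the same way, in VVM against PM 8 of 17, and in IVM against VVM 1 of 5, GPRC5B. For 16, 8 and 3 members no other probe set was called, and for GPR137B and AVPR1A another was called the opposite way.

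Genes that act downstream of the receptors are read against all genes, of which 25% rose and 20.9% fell in IVM and 18% rose and 21.8% fell in VVM. Of 17 measured G protein subunits, 2 (11.8%) rose and 4 (23.5%) fell in IVM against PM, and 4 (23.5%) rose and 2 (11.8%) fell in VVM against PM. GNB5, the beta subunit that pairs with the R7 group of RGS proteins, was at 9.63 ± 0.29 in the 4 PM arrays, 5.59 ± 1.16 in the 3 IVM arrays and 5.28 ± 0.25 (mean ± SD) in the 4 VVM arrays, differences of -4.04 ± 0.41 and -4.35 ± 0.38. GNAI1, an inhibitory alpha subunit, was lower in IVM than in VVM (-1.70 ± 0.32, adjusted p = 0.00675) and than in PM (-1.17 ± 0.32), as was GNAI3 (-0.77 ± 0.17 and -1.14 ± 0.17).

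Of 16 measured RGS genes, which shut G proteins off, 5 (31.2%) rose and 3 (18.8%) fell in IVM and 5 (31.2%) rose and 4 (25%) fell in VVM, against 25% and 20.9% of all genes in IVM and 18% and 21.8% in VVM. RGS2, which acts on Gq, was at 5.89, 6.003 and 6.30 in PM 2, PM 3 and PM 4, at 10.83 in PM 1 and at 11.98 or higher in all matured arrays (5.65 ± 1.01 in IVM and 5.61 ± 0.94 in VVM against PM). RGS10 fell by 4.14 in IVM and 3.23 in VVM (SE 0.36 and 0.34). RGS7, an R7 member, was higher in IVM than in VVM (1.35 ± 0.34, adjusted p = 0.0283) and lower than PM in both (-1.17 ± 0.34 and -2.52 ± 0.32). RGS19 was higher in IVM than in both other groups (1.26 ± 0.22 against VVM and 1.15 ± 0.22 against PM).

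Of 15 receptor kinases, arrestins and receptor-modifying proteins, 5 (33.3%) rose and 4 (26.7%) fell in IVM and 2 (13.3%) rose and 4 (26.7%) fell in VVM, against the same shares of all genes. MRAP2, which modifies melanocortin receptors, was at 8.34 ± 0.66 (SD, n = 3) in IVM, against 10.32 ± 0.88 (SD, n = 4) in VVM and 10.33 ± 0.77 (SD, n = 4) in PM (-1.98 ± 0.51, adjusted p = 0.0301, and -1.99 ± 0.51, adjusted p = 0.0106). The arrestin ARRB2 was higher in IVM than in VVM (0.80 ± 0.19, adjusted p = 0.018), and the kinase GRK3 fell by 1.40 in VVM (SE 0.23).

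Ligand supply and breakdown genes were counted in the same way, in lists too short to set against the shares of all genes. Of 7 measured prostaglandin genes 2 rose and 1 fell in each matured group, and CBR1, a carbonyl reductase that acts on prostaglandin E2, was higher in IVM than in both VVM (1.26 ± 0.13) and PM (1.46 ± 0.13). Of 11 genes of lysophospholipid and sphingosine phosphate turnover, 1 rose and 4 fell in IVM and 2 rose and 2 fell in VVM. SGPP1, a sphingosine phosphate phosphatase, was highest in VVM (1.72 ± 0.17 against PM and -1.21 ± 0.18 in IVM against VVM), while the lyase SGPL1 fell by 1.14 in IVM and 1.61 in VVM. Of 9 genes of ATP and adenosine turnover 1 rose and 2 fell in IVM and 3 rose and 2 fell in VVM, where the nucleoside transporter SLC29A1 fell by 2.97 and 3.39 (SE 0.25 and 0.23), the adenosine-forming NT5E by 0.85 and 1.28, and the ATP channel PANX1 was higher in VVM than in PM (1.13 ± 0.30) and IVM (-1.18 ± 0.32 in IVM against VVM). Of 9 genes of peptide ligands and their processing, 3 rose in each matured group and none was called lower. Those that rose included the endothelin-converting enzyme ECE1 (1.25 ± 0.14 and 1.44 ± 0.13), though no endothelin receptor was among the members.

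Receptors of the same superfamily that the name rule leaves out were counted as well. Of 56 measured, 24 (42.9%, all genes 25%) rose and 6 (10.7%, all genes 20.9%) fell in IVM. In VVM 16 (28.6%, all genes 18%) rose and 5 (8.93%, all genes 21.8%) fell. In IVM against VVM 1 was called higher (1.79%, all genes 9.06%) and 2 lower (3.57%, all genes 7.63%). Their median difference was 0.31 in IVM and 0.22 in VVM, against 0.34 and 0.24 for the members and 0.12 and 0.04 for all genes. The Wnt receptor FZD7 fell by 3.55 in IVM and 2.44 in VVM (SE 0.28 and 0.26), FZD4 by 2.49 and 2.32 (SE 0.25 and 0.23), and the histamine receptor HRH1 by 1.66 and 2.46 (SE 0.30 and 0.28). LGR4, a receptor for R-spondins, was highest in VVM (1.58 ± 0.18 against PM, adjusted p = 9.18e-05, and -1.33 ± 0.19 in IVM against VVM, adjusted p = 0.00171).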

How the data were processed

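Cumulus cell RNA of 11 rhesus macaque samples was hybridized to Affymetrix arrays. The authors deposited RMA intensity values on a linear scale, per the submitters' processing notes made with Affymetrix Expression Console and RMA, with versions not given in the sources used here. Intensities were log2-transformed without a pseudocount. After leaving out 99 array controls, 52766 probe sets were tested, of which 24956 carried 1 gene symbol. Gene symbols are those of the annotation, where 140 of 146 members had a RefSeq match by gene identifier. A group-means model was fitted with limma 3.58.1 in R 4.3.3 (8 residual and 3.3 prior degrees of freedom), two-sided, with Benjamini-Hochberg adjustment over the 52766 probe sets in each comparison, and the script was tested on simulated data. The number of arrays limits the precision. Depth does not apply to arrays, and sequences of the genes were not used here.

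In each comparison the rule gives in full the called members whose groups do not overlap, by size, up to 10, and then members by class. Called members of at least 2-fold were added after the data were seen. Pathway lists give up to 4 called genes each. GPR37, CSF1R and the examples within a class were chosen after their values were seen. The members and lists were chosen with earlier results of these data known, so they give no independent support. Same-numbered arrays were checked for pairing: their residuals correlated between -0.107 and 0.101, and the model therefore has no term for them.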

Additional observations from a re-analysis of the deposited data

Results flagged for a closer look

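ADGRV1 in VVM 3 had a log2 level of 7.63 that lay far from the other VVM arrays, which ran from 6.64 to 6.73. It was 1 of 54 groups of 4 arrays tested over the 27 members described in full, and chance alone sets an array apart in about 5% of such groups, or 2.7 here. VVM 3 was also the array with the highest mean of the leukocyte markers, and the part of that in the level was not tested.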

How the results depend on the processing

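The counts of called members (7 in IVM against VVM, 69 in IVM against PM, 53 in VVM against PM) moved by over 1.5 times in these cases. Array weights gave 4 in IVM against VVM. Centring each array gave 45 and 34 against PM in IVM and VVM. Requiring 2-fold gave 12 and 20 by its own construction. Adding the hybridization control level to the model gave 1, 0 and 7, and limma called 9 members of IVM against PM at an unadjusted p under 0.05 there. Leaving out PM 1, VVM 2 and VVM 3 gave 42 and 19 against PM. Leaving out 1 array at a time gave 3 to 12 in IVM against VVM (3 without IVM 2, 12 without IVM 3), 47 to 72 in IVM against PM, and 30 to 54 in VVM against PM (30 without PM 1, 34 without VVM 3, 35 without PM 4). Except for centring, the 2-fold rule and the hybridization control level, the share of all genes called in these fits was not counted. The cause was not tested. The replicate block, which the residuals did not bear out as a pairing, gave 6, 54 and 41. Quantile normalization of the values again gave 10, 60 and 41.

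Of 1107 values of 51 differences under these alternatives, 909 kept direction and call, 182 kept direction and lost the call (36 of them with the hybridization covariate), 11 gained a call and 5 reversed. The reversed ones were GPR137B with its most variable probe set (-0.95 in IVM against VVM and -0.41 in IVM against PM), and, with the hybridization covariate, GPR89A in IVM against PM (0.06) and SSTR1 in IVM against VVM (1.44) and IVM against PM (3.28). In all 11 fits without 1 array, 2 of 7, 43 of 69 and 27 of 53 members were called. Signal near background limits the 63 dimmer members, whose folds are uncertain in size and at best lower bounds where the other group is bright. With centring, their rises in IVM against PM went from 19 (30.2%, all such genes 24.2%) to 4 (6.35%, all such genes 9.65%).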
